A study of Mus musculus with 12 samples.

Results

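The collagen genes described here are the 44 mouse genes that are annotated as protein coding and whose symbol has the form Col, a type number, a and a chain number. All 44 were found among the 52636 genes of the count table. They were grouped by class as 11 fibrillar collagens, 10 collagens of the basement membrane and its zone, and 23 other collagens. Skin of C57BL/6 mice aged 3 months was collected on day 14 and sequenced as bulk RNA in 4 groups of 3 mice. KO mice carried floxed *Cdc42* and a Cre recombinase driven by the keratin 5 promoter, which is active in basal keratinocytes, so that the dermal cells of the sample keep the gene. WT mice carried floxed *Cdc42* without Cre. WT and KO received only the vehicle, normal saline with hydroxypropyl methylcellulose, on shaved back skin. The groups labelled WT+ZnO NPs and KO+ZnO NPs received zinc oxide nanoparticles (ZnO NPs) in this vehicle. The design asks how collagen transcripts differ between the genotypes, with exposure in each genotype, and whether the response to exposure depends on the genotype.

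Collagens are proteins whose chains wind around each other into a rope-like helix. Fibrillar collagens (types I, III, V, XI, XXIV and XXVII) assemble into the fibrils that give the dermis its tensile strength, with types I and III as the bulk of dermal collagen and type V as the chain that starts a fibril. Type IV collagen forms the network of the basement membrane under the epidermis and around vessels, type VII builds the anchoring fibrils that tie this membrane to the dermis, and type XVII crosses the membrane of basal keratinocytes in hemidesmosomes. Among the other collagens, type VI forms beaded filaments, types XII, XIV and XVI sit on the surface of fibrils, types VIII and X form short-chain networks, and types XIII, XXIII and XXV are anchored in the cell membrane.

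Each library held between 21076320 and 28867802 counts. *Cdc42* stood at 606.1 to 628.4 CPM (counts scaled to a common library size, here with TMM factors) in WT and at 415.4 to 464.0 in KO. The libraries labelled WT+ZnO NPs, at 310.7 to 350.1 CPM, lay below every KO library, which goes against their label, and those labelled KO+ZnO NPs lay at 313.5 to 453.0. Both exposed groups are therefore named by their label only, and every direction drawn from them below is that of the labelled libraries. Y-linked transcripts summed to 191.7 to 241.7 CPM in 5 libraries, namely all 3 labelled WT+ZnO NPs and replicate 1 of KO and of KO+ZnO NPs. In the other 7 libraries they did not pass 0.0504 CPM. The study's methods describe the KO mice as female. The exposure in WT and this difference between libraries cannot be told apart.

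Genes with an adjusted p below 0.05 are named as called, from the quasi-likelihood test of edgeR on all 12 libraries with adjustment over the 18822 genes tested. Of the collagen genes, 41 passed the filter on low counts, that is 10 fibrillar, 10 basement membrane and 21 other members, and 35 had at least 10 counts in every library. The members left out were *Col2a1* and *Col9a1*, both known from cartilage, and *Col19a1*. Raw counts of *Col2a1* were 0 in each WT library, which allows up to 3 counts, 0, 5 and 4 in KO and 3 to 11 in the exposed libraries. *Col9a1* did not pass 10 counts in any library, and *Col19a1* reached 28 counts in replicate 2 of WT+ZnO NPs.

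Promoter windows are shown for members of each class with a call in several comparisons, and for a pair of chains that share a promoter. RefSeq windows on GRCm38.p6, from 250 bases before the start of the gene to 50 bases after it, existed for 35 of the 44 members. *Col7a1*, *Col16a1* and *Col24a1* were called in KO against WT, in WT+ZnO NPs against WT and in the interaction. *Col4a1* and *Col4a2*, the chains of the major type IV network, are transcribed away from each other from starts that lie 21 bases apart in overlapping first exons, so that their windows share 78 bases. Capitals mark matches on either strand to the GC box GGGCGG, the CCAAT box CCAAT, the TATA box TATAAA and the AP-1 motif TGANTCA, where N is any base.
*Col7a1* (chr9:108953336-108953635, + strand): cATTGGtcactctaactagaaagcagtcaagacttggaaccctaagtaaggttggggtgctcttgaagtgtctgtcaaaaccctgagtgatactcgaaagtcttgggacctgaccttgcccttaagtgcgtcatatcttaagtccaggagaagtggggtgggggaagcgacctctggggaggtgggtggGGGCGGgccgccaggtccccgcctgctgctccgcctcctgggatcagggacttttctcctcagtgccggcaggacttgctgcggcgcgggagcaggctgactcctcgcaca
*Col16a1* (chr4:130047590-130047889, + strand): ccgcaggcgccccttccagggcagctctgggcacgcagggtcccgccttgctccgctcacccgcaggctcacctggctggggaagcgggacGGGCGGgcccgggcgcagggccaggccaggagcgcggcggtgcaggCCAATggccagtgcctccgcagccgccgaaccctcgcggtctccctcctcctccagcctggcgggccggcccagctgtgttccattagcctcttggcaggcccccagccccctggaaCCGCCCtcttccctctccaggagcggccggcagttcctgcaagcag
*Col24a1* (chr3:145292222-145292521, + strand): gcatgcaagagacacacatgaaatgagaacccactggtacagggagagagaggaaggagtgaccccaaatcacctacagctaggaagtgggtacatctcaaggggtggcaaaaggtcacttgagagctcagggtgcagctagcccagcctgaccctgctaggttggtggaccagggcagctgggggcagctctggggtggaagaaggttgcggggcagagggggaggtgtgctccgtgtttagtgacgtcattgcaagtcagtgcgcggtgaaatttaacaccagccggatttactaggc
*Col4a2* (chr8:11312555-11312854, + strand): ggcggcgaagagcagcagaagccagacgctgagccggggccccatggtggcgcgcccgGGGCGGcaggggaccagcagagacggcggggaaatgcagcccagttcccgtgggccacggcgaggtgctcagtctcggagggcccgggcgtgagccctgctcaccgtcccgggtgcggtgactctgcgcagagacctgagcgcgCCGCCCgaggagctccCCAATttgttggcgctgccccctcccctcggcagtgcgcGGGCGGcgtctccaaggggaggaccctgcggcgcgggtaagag

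The window of *Col7a1* held 1 GC box and 1 CCAAT box, that of *Col16a1* held 2 GC boxes and 1 CCAAT box, and that of *Col24a1* held none of the 4 motifs. The *Col4a2* window held 3 GC boxes and 1 CCAAT box. A GC box was found in 22 of the 35 collagen windows (62.9%) against 35.7% of all 32851 RefSeq windows of this length. The collagen windows were also richer in G and C, with a median of 60.0% against 52.7%. A CCAAT box was in 12 collagen windows (34.3%, against 37.4% of all), a TATA box in 5 (14.3%, against 13.6%) and the AP-1 motif in 1 (2.86%, against 7.81%). CAGAC, the letters bound by SMAD proteins, was in 18 (51.4%, against 49.6%). These are matches of letters in a window and no sites of binding were measured.

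Levels of collagen genes are given as RPKM, the TMM-scaled CPM divided by the length of the longest annotated transcript in kilobases, in the order of replicates 1, 2 and 3. The fibrillar transcripts of types I and III were the most abundant of all members. In WT, *Col3a1* stood at 485, 369 and 932 RPKM, *Col1a2* at 427, 227 and 520, and *Col1a1* at 375, 168 and 485. These 3 did not differ in order beyond their spread, and the level of *Col1a2* in WT became 168 RPKM, from a mean of 391, where the union of its exons was used as length. Types I and III took 46.9% to 63.4% of the collagen counts in WT and 69.9% to 86.4% in the other groups, without overlap.

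All collagen genes together took 0.897% to 1.68% of the counts in WT, 1.04% to 3.86% in WT+ZnO NPs, 2.81% to 4.54% in KO and 1.89% to 2.60% in KO+ZnO NPs. The WT and KO ranges did not overlap. Fibrillar collagens made up most of this, with 0.502% to 1.18% in WT and 2.15% to 3.69% in KO. Basement membrane collagens took 0.176% to 0.234% in WT and 0.216% to 0.295% in KO, and these ranges overlapped. Other collagens took 0.171% to 0.259% in WT and 0.433% to 0.605% in KO, again without overlap. In bulk skin, a larger number of cells of one type and more RNA per cell cannot be told apart.

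**Figure D1:**
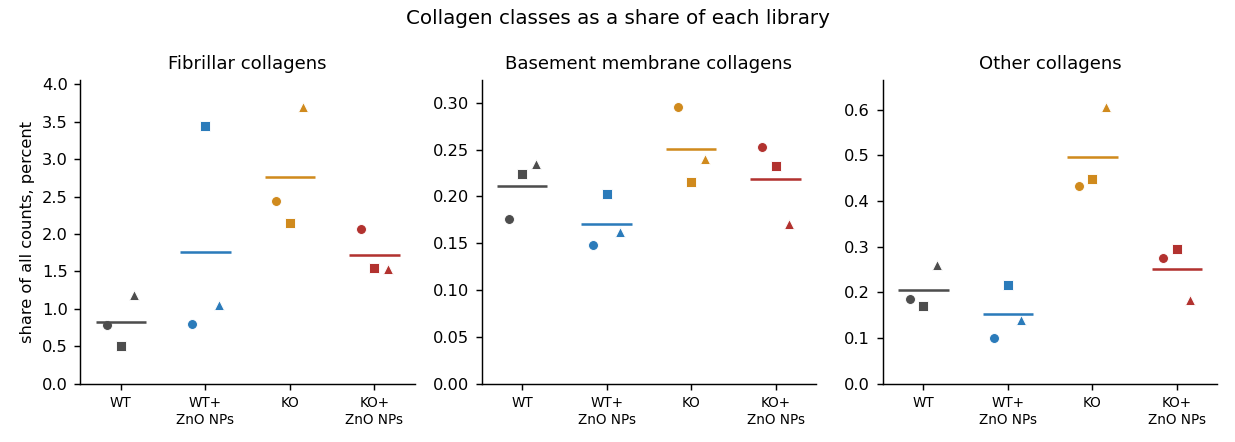
Share of all counts in percent for fibrillar, basement membrane and other collagens in each of the 12 libraries (circle, square and triangle for replicates 1, 2 and 3, bar for the group mean, axes from 0). Fibrillar shares of KO, at 2.15% to 3.69%, lie above those of WT, at 0.502% to 1.18%, and replicate 2 of WT+ZnO NPs lies at 3.44%.

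The collagen transcripts called higher in KO skin than in WT were mostly fibrillar and other members, with 1 of 10 basement membrane members. In KO against WT, 11 of the 41 members tested rose (26.8%) and 0 fell, beside 4.61% of all genes tested that rose and 3.58% that fell. At an unadjusted p below 0.05 there were 21 members. Here and in all sections below, the share of all genes at this unadjusted cutoff was not counted. Such counts are therefore not read as a result about collagens. The members that rose were 3 fibrillar (*Col5a1*, *Col24a1*, *Col27a1*), 1 of the basement membrane (*Col7a1*) and 7 other (*Col6a3*, *Col6a4*, *Col12a1*, *Col16a1*, *Col23a1*, *Col25a1*, *Col26a1*). The median log2 fold change was 1.70 over fibrillar, 0.098 over basement membrane and 1.09 over other members, against 0.00998 over all genes. All 3 KO libraries lay above all 3 WT libraries for 19 members (46.3% of those tested), against 18.6% of genes.

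The call of 11 members is that of the fit on all groups. A fit of WT and KO alone called 19 members, all higher, with 15.9% of genes called in either direction. Beside those 11 it called *Col1a1*, *Col1a2*, *Col3a1*, *Col5a2*, *Col6a1*, *Col6a2*, *Col10a1* and *Col11a1*. DESeq2 on all 12 libraries also called 19, all higher, beside 14.0% of genes, with *Col4a3* in place of *Col5a2*. With Y-linked transcripts as a covariate 9 members were called, beside 5.11% of genes. The calls of *Col5a1* and *Col6a3* were lost (edgeR adjusted p = 0.0586 and 0.0826). Their log2 fold changes were 1.80 and 1.15 there, and 1.81 and 1.14 without the covariate. Using only the 7 libraries without Y-linked transcripts, which leaves 2 KO mice, 10 members were called, all higher, beside 3.74% of genes. Those 10 were the 11 genes of the fit on all groups without *Col6a3*. Of these 11, all but *Col5a1*, *Col6a3* and *Col6a4* were called in every fit that left out 1 library.

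Among the fibrillar collagens, the abundant chains of types I and III were not called in the fit on all groups. They were called higher by DESeq2 and in the fit of WT and KO alone. *Col1a1* stood at 375, 168 and 485 RPKM in WT and at 1271, 994 and 1826 in KO, a log2 fold change of 1.99 ± 0.60 (SE, n = 3 mice per group; edgeR adjusted p = 0.064). Its partner *Col1a2* reached 1266, 1138 and 1937 RPKM in KO, with a log2 fold change of 1.89 ± 0.54 (edgeR adjusted p = 0.0557). *Col3a1*, the chain of type III, reached 1594, 1494 and 2302 RPKM in KO (1.59 ± 0.55, edgeR adjusted p = 0.096). All 3 KO libraries lay above all 3 WT libraries for these genes, and the adjusted p became 0.0199, 0.0138 and 0.0322 when replicate 2 of WT+ZnO NPs, which holds the highest *Col1a1* and *Col1a2* of all libraries, was left out of the fit.

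*Col5a1*, a chain of the fibril-starting type V, rose from 20.9, 17.6 and 36.0 RPKM in WT to 75.7, 78.9 and 107 in KO (1.81 ± 0.44, edgeR adjusted p = 0.0335). The call was lost without WT replicate 1 or 2 or without any 1 KO library, with adjusted p from 0.0601 to 0.142. Its partner *Col5a2* stood at 51.8, 65.2 and 88.4 RPKM in WT and 122, 115 and 137 in KO and was not called (0.87 ± 0.40, edgeR adjusted p = 0.197). The third type V chain, *Col5a3*, averaged 36.5 ± 13.5 RPKM in WT and 49.9 ± 9.20 in KO (SD, n = 3) and was not called. *Col11a1*, which can join type V fibrils, stood at 0.920, 0.334 and 0.565 RPKM in WT and 3.05, 1.85 and 11.1 in KO (3.13 ± 0.88, edgeR adjusted p = 0.0523). It was called without WT+ZnO NPs replicate 1, KO replicate 2 or KO+ZnO NPs replicate 3 (edgeR adjusted p = 0.0468, 0.049 and 0.0368). Replicate 3 was the highest of KO for each of *Col1a1*, *Col1a2*, *Col3a1*, *Col5a1* and *Col11a1*.

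For the minor fibrillar collagens XXIV and XXVII the groups stood apart. *Col24a1* stood at 0.112, 0.0786 and 0.155 RPKM in WT, 0.381, 0.249 and 0.293 in WT+ZnO NPs, 1.096, 1.25 and 2.51 in KO and 0.647, 0.875 and 0.402 in KO+ZnO NPs. None of these groups overlapped. In KO against WT it rose by 3.82 ± 0.44 on the log2 scale, 14.1-fold (edgeR adjusted p = 0.00127). *Col27a1* stood at 2.05, 1.66 and 1.97 RPKM in WT, 2.58, 2.85 and 2.62 in WT+ZnO NPs, 4.47, 5.46 and 6.02 in KO and 3.04, 3.96 and 3.87 in KO+ZnO NPs. No value of one group lay within the range of another. In KO against WT it rose 2.81-fold (1.49 ± 0.15, edgeR adjusted p = 0.000742).

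**Figure D2:**
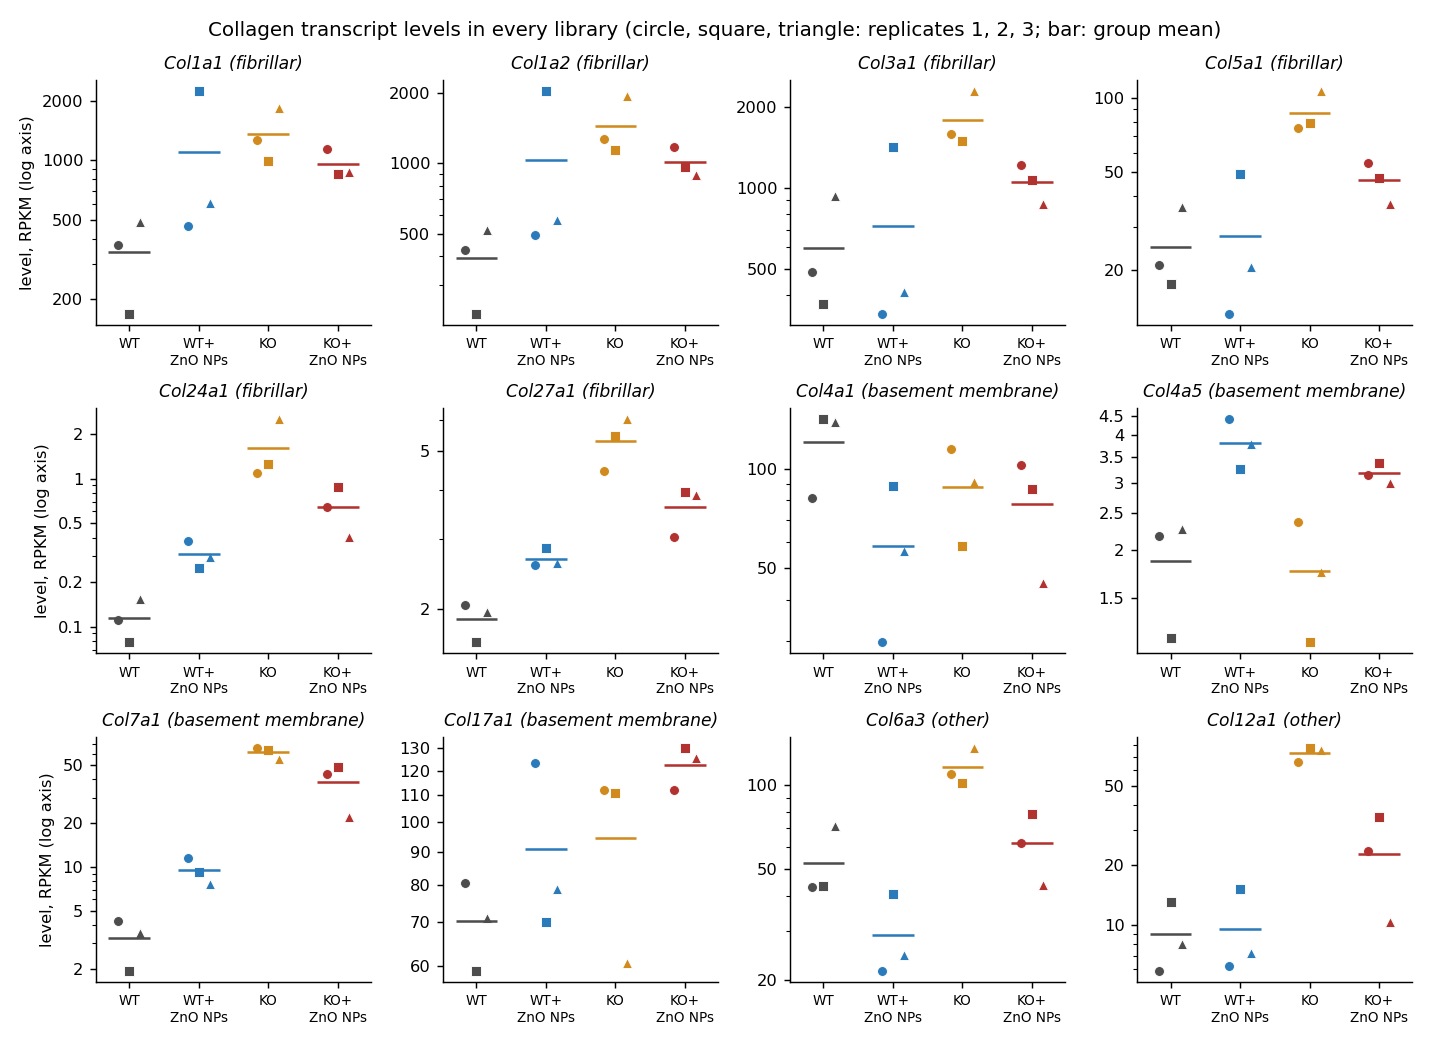
Level in RPKM on log axes of 12 collagen genes in every library, with the class in each title (circle, square and triangle for replicates 1, 2 and 3, bar for the group mean). *Col7a1* and *Col12a1* separate KO, at 55.4 to 65.9 and 66.0 to 77.8 RPKM, from WT, at 1.95 to 4.29 and 5.91 to 13.1, while *Col4a1* and *Col17a1* overlap between these groups.

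In the basement membrane class, *Col7a1*, the only chain of the anchoring fibrils, was the one member called in KO against WT. It stood at 4.29, 1.95 and 3.51 RPKM in WT, 11.6, 9.29 and 7.62 in WT+ZnO NPs, 65.9, 63.9 and 55.4 in KO and 43.8, 48.8 and 22.2 in KO+ZnO NPs. None of the 4 ranges overlapped. The rise in KO was 19.01-fold (log2 fold change 4.25 ± 0.37, edgeR adjusted p = 0.000406). *Col17a1*, a hemidesmosome collagen of the same zone, stood at 80.6, 59.0 and 71.2 RPKM in WT and 112, 111 and 60.5 in KO and was not called (0.43 ± 0.27, edgeR adjusted p = 0.352).

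The type IV chains were not called in KO against WT. *Col4a1* stood at 81.1, 141 and 138 RPKM in WT and 114, 58.2 and 90.7 in KO, and *Col4a2* at 58.1, 88.4 and 83.4 in WT and 85.1, 47.5 and 68.1 in KO. Both groups overlapped for each chain. *Col4a3* and *Col4a4*, minor chains that pair with *Col4a5*, averaged 0.164 ± 0.0320 and 0.531 ± 0.205 RPKM in WT, and 0.736 ± 0.806 and 1.23 ± 1.01 in KO. Replicate 1 of KO alone held 1.66 and 2.37 RPKM of these chains. *Col18a1*, the precursor of endostatin, averaged 35.1 ± 2.86 RPKM in WT and 42.9 ± 8.61 in KO, and *Col15a1*, its relative, 39.5 ± 10.9 and 28.2 ± 11.3 (SD, n = 3), neither of them called.

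Among the other collagens, *Col12a1*, which coats type I fibrils, was at 5.91, 13.1 and 8.07 RPKM in WT, 6.21, 15.2 and 7.21 in WT+ZnO NPs, 66.0, 77.8 and 76.2 in KO and 23.5, 34.8 and 10.4 in KO+ZnO NPs. KO lay above all other libraries, and WT and WT+ZnO NPs overlapped. The rise in KO against WT was 8.11-fold (3.02 ± 0.49, edgeR adjusted p = 0.00607). *Col16a1*, also on the fibril surface, stood at 23.2, 17.9 and 24.3 RPKM in WT and 62.3, 54.9 and 84.6 in KO, a 3.09-fold rise (1.63 ± 0.24, edgeR adjusted p = 0.00414). *Col14a1*, the other abundant collagen of this kind, averaged 18.5 ± 6.63 RPKM in WT and 17.8 ± 7.88 in KO and was not called.

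Of the 6 type VI chains, *Col6a3* and *Col6a4* rose in KO. *Col6a3* stood at 42.9, 43.3 and 71.5 RPKM in WT and 109, 101 and 136 in KO (1.14 ± 0.31, edgeR adjusted p = 0.0488), a call that was lost without any 1 library of WT or KO, and without replicate 1 or 3 of WT+ZnO NPs or replicate 1 of KO+ZnO NPs, with adjusted p from 0.0503 to 0.186. Its partners *Col6a1* and *Col6a2*, which form the filament with it, had similar differences without a call in the fit on all groups. Their log2 fold changes were 1.12 ± 0.36 (edgeR adjusted p = 0.0816) and 1.03 ± 0.36 (edgeR adjusted p = 0.101). Both were called higher by DESeq2 and in the fit of WT and KO alone. *Col6a4* was rare, at 0.0968, 0.0333 and 0.144 RPKM in WT and 0.739, 1.19 and 1.16 in KO (3.50 ± 0.69, edgeR adjusted p = 0.0146). The call was lost without WT replicate 1 or 2 (adjusted p = 0.0521 and 0.0675), and 3.39% of its exon length overlaps other genes. *Col6a5* and *Col6a6* averaged 1.51 and 1.33 RPKM in WT and 1.92 and 1.37 in KO, neither of them called.

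The membrane collagens *Col23a1* and *Col25a1*, and *Col26a1*, also rose in KO. *Col25a1* held few counts, 1, 6 and 3 in WT and 16, 50 and 101 in KO, which gives a log2 fold change of 4.14 ± 0.77 (edgeR adjusted p = 0.0117). *Col23a1* and *Col26a1*, named here after their values were seen, rose 2.501-fold (edgeR adjusted p = 0.00744) and 13.5-fold (edgeR adjusted p = 0.004), from 5.32 to 13.3 and from 0.126 to 1.72 RPKM in the group means. *Col10a1*, the collagen of hypertrophic cartilage, held 9, 5 and 6 counts in WT and 94, 59 and 130 in KO. Its log2 fold change of 3.89 ± 1.25 was not called (edgeR adjusted p = 0.0814). It was called without replicate 2 of WT+ZnO NPs or of KO+ZnO NPs (edgeR adjusted p = 0.0493 and 0.0453).

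**Figure D3:**
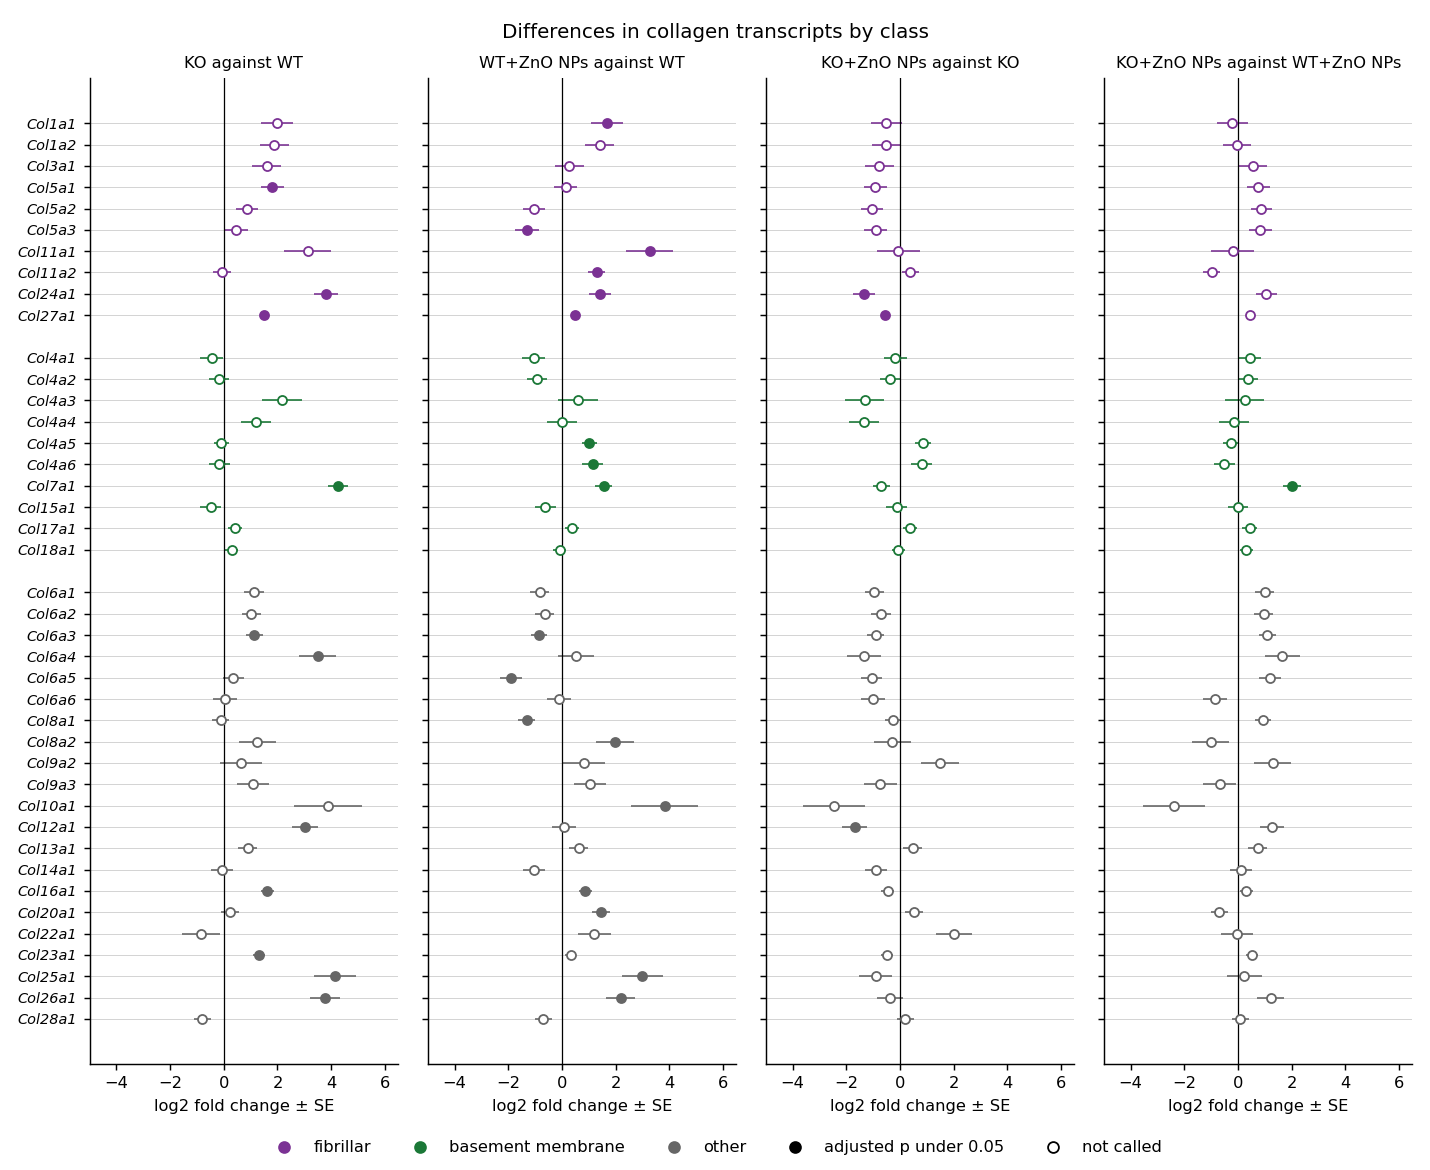
Log2 fold change with its standard error for the 41 collagen genes tested, by class, in 4 comparisons of groups (filled points for an adjusted p below 0.05, open points for the rest). The filled points number 11, 18, 3 and 1 from left to right, all to the right of 0 in KO against WT and all to the left of 0 in KO+ZnO NPs against KO.

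Other genes of the collagen pathway were called in KO against WT as follows, beside the 4.61% of all genes that rose and the 3.58% that fell. Of 19 genes of folding and hydroxylation, 2 rose and 2 fell (median log2 fold change 0.0372). *Plod1*, a lysyl hydroxylase, fell by 1.17 on the log2 scale (edgeR adjusted p = 0.00184). Of 12 tested genes of secretion and propeptide processing 1 rose, *Bmp1*, the protease that removes the C-terminal propeptide of fibrillar collagens (1.22, edgeR adjusted p = 0.00337). Of 5 cross-linking oxidases 1 fell, *Loxl3* (−0.81, edgeR adjusted p = 0.0262). Of 9 fibril-binding proteoglycans 1 rose, *Aspn* (1.94, edgeR adjusted p = 0.0229), and of 9 collagen receptors 1 rose, the integrin chain *Itga2* (1.96, edgeR adjusted p = 0.0037). Of 8 genes of the TGF-beta axis, a signal known to raise collagen transcription in fibroblasts, 4 rose and 0 fell, led by the receptor *Tgfbr1* (0.89, edgeR adjusted p = 0.0096).

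Markers of dermal fibroblasts summed to 1445 to 1964 CPM in WT and 1652 to 1857 in KO, with *Pdgfrb* called higher, *Mfap5* lower and the remaining 8 of 10 not called. Markers of the growing hair follicle summed to 11.97 to 22.8 CPM in WT and 42.6 to 12530 in KO, with 8 of 10 called higher. Within KO, replicate 2 held the 42.6 CPM, with *Krt72* at 0 there as in all WT libraries, and of the 11 members called, that same library held the lowest level of KO for 3 (*Col6a3*, *Col16a1*, *Col26a1*), the highest for 3 (*Col6a4*, *Col12a1*, *Col23a1*) and one between the other KO mice for 5. All 11 lay above every WT library there, but they were chosen by a test that included this library. Of the 30 uncalled members tested, that library held the lowest level of KO for 21, among them *Col1a1*, *Col1a2*, *Col3a1* and *Col4a1*, and the highest for 3. Basal keratinocyte markers summed to 4557 to 6318 CPM in WT and 6945 to 10820 in KO, with 1 of 7 called. Endothelial markers summed to 425 to 509 CPM in KO against 709 to 748 in WT and adipocyte markers to 1978 to 3819 against 5301 to 7443, with no gene of either list called. Schwann cell markers summed to 333 to 376 CPM against 478 to 552, with 0 of 7 called, and cartilage and bone markers to 9.04 to 28.6 against 3.41 to 5.71, with 2 of 5 tested called higher. Of the pericyte and smooth muscle markers 1 of 7 was called higher and of the skeletal muscle markers 1 of 9 lower. The part of these lists in the collagen differences was not tested.

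**Figure D4:**
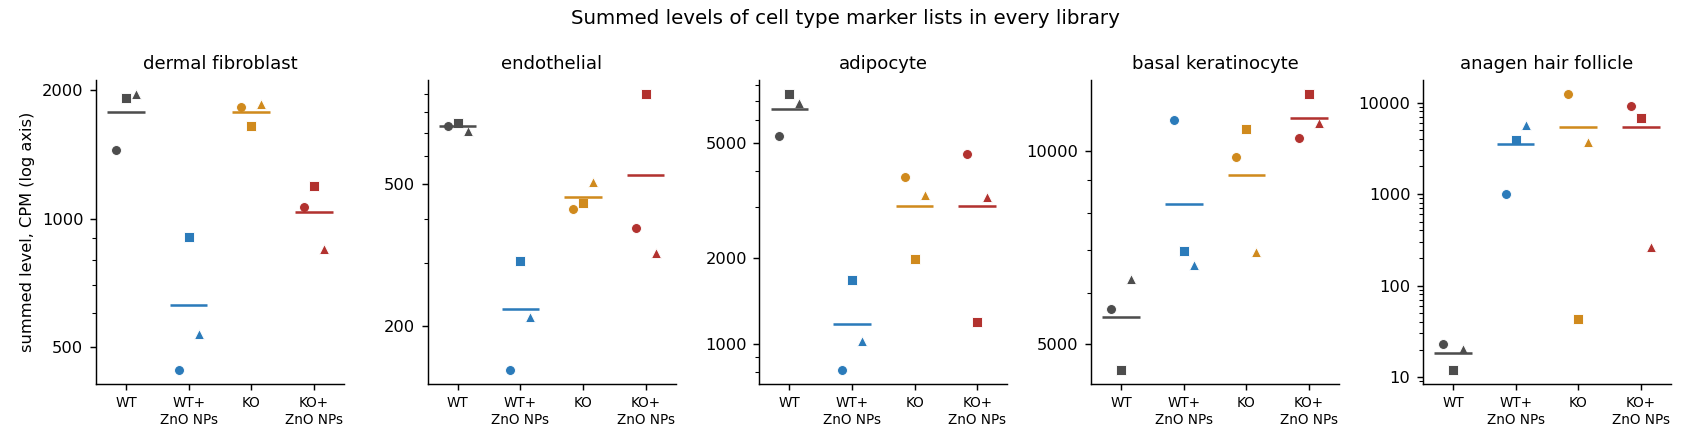
Summed level in CPM on log axes of 5 lists of cell type markers in every library (circle, square and triangle for replicates 1, 2 and 3, bar for the group mean). Fibroblast markers lie at 1445 to 1964 in WT and 442 to 905 in WT+ZnO NPs, and hair follicle markers lie at 42.6 in replicate 2 of KO against 3674 and 12530 in the other KO mice.

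Exposure of WT, by the labels, went with collagen differences in both directions. Of the 41 members tested, 14 rose (34.1%) and 4 fell (9.76%), beside 20.8% and 22.1% of all genes tested. The members that rose were 5 fibrillar, 3 of the basement membrane and 6 other, and those that fell were *Col5a3* of the fibrillar class and *Col6a3*, *Col6a5* and *Col8a1* of the other class. In either direction these were 43.9% of the members and 43.0% of all genes, so the share called was near that of all genes. All 3 exposed libraries lay above all WT libraries for 13 of the members tested (31.7%) and below them for 4 (9.76%), beside 30.1% and 29.3% of genes. The median log2 fold change was 0.90 over fibrillar, 0.191 over basement membrane and 0.51 over other members, against 0.0563 over all genes. With Y-linked transcripts as a covariate the calls fell to 4 members (*Col5a3*, *Col20a1*, *Col25a1*, *Col27a1*), beside 20.7% of genes. Of the calls lost, log2 fold changes in that fit were 3.73 for *Col11a1*, 1.79 for *Col24a1*, 1.42 for *Col11a2*, 2.06 for *Col8a2*, 4.84 for *Col10a1* and 0.85 for *Col16a1*. These were about as large as or larger than without the covariate. Smaller values were those of *Col4a5* (0.67), *Col4a6* (0.71), *Col7a1* (1.33), *Col6a5* (−1.005) and *Col8a1* (−0.998). Without WT replicate 2, 5 members rose and 2 fell, beside 13.8% and 17.2% of genes. Without replicate 2 of WT+ZnO NPs 9 members rose and 10 fell, beside 17% and 19.6% of genes, with *Col4a1*, *Col4a2*, *Col5a2*, *Col6a1*, *Col6a2* and *Col14a1* among those that fell, so the excess of rises over falls among the members rests on this library.

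*Col1a1* was called higher in this comparison (1.69 ± 0.59, edgeR adjusted p = 0.0394), but its values were 466, 2241 and 608 RPKM against 375, 168 and 485 in WT, and the groups overlapped. Without replicate 2 of WT+ZnO NPs the log2 fold change was 0.65 (adjusted p = 0.256), and the call was also lost without WT replicate 1 or 2 (adjusted p = 0.0872 and 0.13). *Col1a2*, at 492, 2040 and 574 RPKM, was not called (1.404 ± 0.53, edgeR adjusted p = 0.0535). Its log2 fold change was 0.44 (adjusted p = 0.367) without replicate 2 of WT+ZnO NPs, and it was called without replicate 1 or 3 of that group (adjusted p = 0.0258 and 0.0431). *Col3a1* stood at 340, 1422 and 409 RPKM, on both sides of the WT values, and its log2 fold change of 0.28 ± 0.53 was not called. Replicate 2 held the highest *Col1a1*, *Col1a2* and *Col3a1* of its group by more than the range of the other 2 libraries.

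The ratio of *Col3a1* to *Col1a1* within a library was 1.29 to 2.20 in WT, 0.634 to 0.729 in WT+ZnO NPs, 1.25 to 1.503 in KO and 0.997 to 1.26 in KO+ZnO NPs. The exposed WT libraries lay below all others, replicate 2 included. *Col1a1* to *Col1a2*, whose chains join at a fixed proportion in type I collagen, stayed between 0.740 and 1.098 over all 12 libraries. *Col5a1* to *Col5a2* was 0.270 to 0.408 in WT and 0.621 to 0.979 in the other groups, without overlap. The size of such a ratio depends on the transcript length chosen, its comparison between libraries does not, and with 3 mice per group an exact two-sided permutation test cannot go below p = 0.1, so these are given as descriptions.

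**Figure D5:**
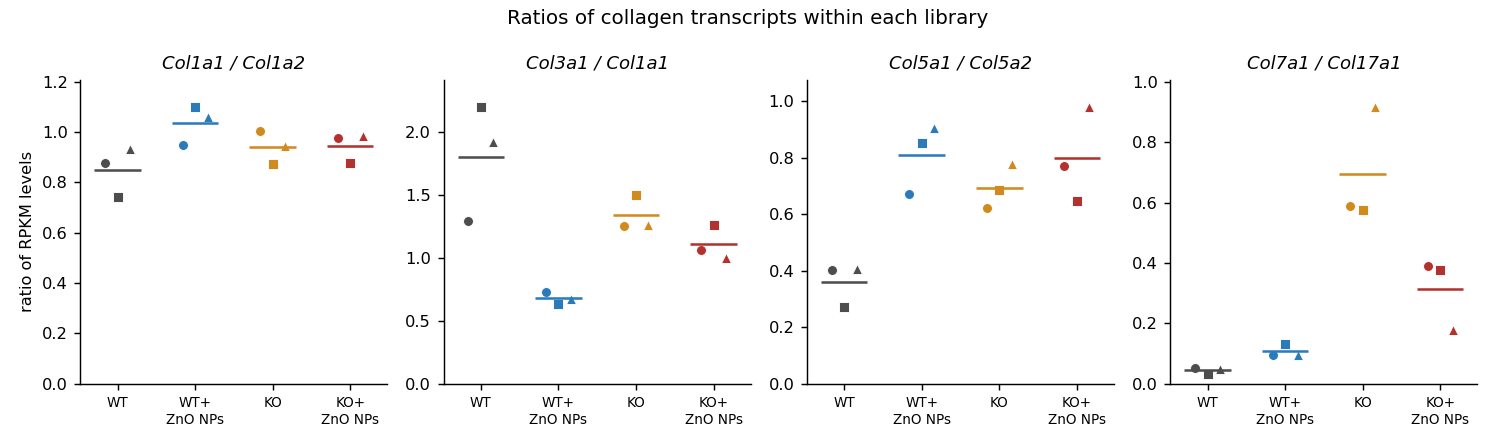
Ratio of RPKM levels of 4 pairs of collagen transcripts within each library, on axes from 0 (circle, square and triangle for replicates 1, 2 and 3, bar for the group mean). *Col3a1* to *Col1a1* lies at 0.634 to 0.729 in WT+ZnO NPs and at 0.997 or more elsewhere, and *Col5a1* to *Col5a2* lies at 0.270 to 0.408 in WT and at 0.621 or more elsewhere.

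Among the remaining fibrillar chains, *Col11a1* rose with exposure of WT, at 1.75, 10.2 and 5.54 RPKM against 0.920, 0.334 and 0.565 in WT (3.27 ± 0.88, edgeR adjusted p = 0.0128, and 0.053 without WT replicate 2). Its partner *Col11a2* rose from 0.354, 0.377 and 0.183 to 0.642, 0.748 and 0.863 RPKM (1.30 ± 0.32, edgeR adjusted p = 0.00818), and *Col24a1* by 1.42 ± 0.42 on the log2 scale (edgeR adjusted p = 0.0194). Neither pair of groups overlapped. The *Col24a1* call was lost without WT replicate 1 or 2 or WT+ZnO NPs replicate 1 (adjusted p = 0.0565, 0.0771 and 0.0602). *Col5a3* fell from 23.1, 36.3 and 50.03 to 9.32, 21.9 and 13.5 RPKM (−1.29 ± 0.44, edgeR adjusted p = 0.0368). That call was lost without WT replicate 2 or 3, WT+ZnO NPs replicate 1 or 3 or KO replicate 2, with adjusted p from 0.0528 to 0.129. *Col5a2*, at 19.9, 57.4 and 22.7 RPKM against 51.8, 65.2 and 88.4 in WT, was not called (−1.04 ± 0.40, edgeR adjusted p = 0.0555). Without replicate 2 of WT+ZnO NPs it was called (−1.69, adjusted p = 0.00311). The aggrecan transcript *Acan*, a cartilage marker, stood at 0.0351 to 0.255 CPM in WT and at 1.00 to 19.9 in all other libraries.

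In the basement membrane class, *Col4a5* and *Col4a6*, neighbours on the X chromosome that form the epidermal type IV network together, both rose. *Col4a5* went from 2.18, 1.18 and 2.28 RPKM in WT to 4.40, 3.26 and 3.79 (1.02 ± 0.29, edgeR adjusted p = 0.0157) and *Col4a6* from 1.75, 0.713 and 1.32 to 3.63, 2.28 and 2.46 (1.15 ± 0.40, edgeR adjusted p = 0.0391). Neither overlapped WT. The *Col4a5* call was lost without WT replicate 2 (adjusted p = 0.0542) or WT+ZnO NPs replicate 1 (adjusted p = 0.0511). That of *Col4a6* was lost without WT replicate 2 or 3, WT+ZnO NPs replicate 1 or 3 or KO replicate 3, with adjusted p from 0.0526 to 0.13. With Y-linked transcripts as a covariate the log2 fold changes were 0.67 and 0.71 (adjusted p = 0.269 and 0.408). The major chains *Col4a1*, at 29.7, 88.4 and 56.2 RPKM against 81.1, 141 and 138, and *Col4a2*, at 22.4, 62.7 and 35.3 against 58.1, 88.4 and 83.4, had negative values that were not called (−1.05 ± 0.43 and −0.93 ± 0.38, edgeR adjusted p = 0.0714 and 0.0669). Without replicate 2 of WT+ZnO NPs these were −1.49 and −1.41 (adjusted p = 0.0287 and 0.0131). Markers of endothelium, which makes both chains, summed to 709 to 748 CPM in WT and 150 to 305 in WT+ZnO NPs, with 7 of 7 called lower, and their part in the type IV values was not tested. The ratio of *Col4a1* to *Col4a2* stayed between 1.22 and 1.66 over all 12 libraries.

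*Col7a1* rose 2.93-fold with exposure of WT (1.55 ± 0.33, edgeR adjusted p = 0.00401) and was called in all 12 fits that left out 1 library. With Y-linked transcripts as a covariate its log2 fold change was 1.33 (adjusted p = 0.0832). *Col17a1*, at 123, 70.1 and 78.9 RPKM, *Col15a1* and *Col18a1* were not called. The ratio of *Col7a1* to *Col17a1* was 0.0330 to 0.0533 in WT, 0.0943 to 0.133 in WT+ZnO NPs, 0.577 to 0.915 in KO and 0.177 to 0.391 in KO+ZnO NPs, and none of these ranges overlapped.

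Among the other collagens, 2 type VI chains fell. *Col6a3* fell from 42.9, 43.3 and 71.5 to 21.6, 40.8 and 24.6 RPKM (−0.86 ± 0.31, edgeR adjusted p = 0.044), a call that was lost without WT replicate 2 or 3, WT+ZnO NPs replicate 1 or 3, any 1 KO library or KO+ZnO NPs replicate 1, with adjusted p from 0.051 to 0.177. *Col6a5*, a minor chain, fell from 1.73, 1.06 and 1.74 to 0.357, 0.571 and 0.290 RPKM (−1.90 ± 0.41, edgeR adjusted p = 0.00419). *Col6a1* was not called (−0.82 ± 0.36, edgeR adjusted p = 0.0857), nor were *Col6a2*, *Col6a4* and *Col6a6*. The type VIII chains went opposite ways. *Col8a1*, made by endothelium and smooth muscle, fell from 3.72, 3.35 and 3.37 to 1.18, 1.87 and 1.17 RPKM (−1.31 ± 0.31, edgeR adjusted p = 0.00716), while its partner *Col8a2* rose from 0.688, 0.154 and 0.549 to 1.12, 2.67 and 1.73 RPKM (1.99 ± 0.71, edgeR adjusted p = 0.0419). The *Col8a2* call was lost without any 1 WT library, WT+ZnO NPs replicate 2 or 3 or KO replicate 3, with adjusted p from 0.0529 to 0.123.

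*Col25a1* rose from 1, 6 and 3 counts in WT to 33, 31 and 12 in WT+ZnO NPs (2.99 ± 0.77, edgeR adjusted p = 0.01). *Col16a1* rose from 23.2, 17.9 and 24.3 to 33.3, 54.4 and 31.8 RPKM (0.87 ± 0.24, edgeR adjusted p = 0.0142), a call that was lost without WT replicate 2 (adjusted p = 0.0624) or WT+ZnO NPs replicate 2 (0.58, adjusted p = 0.0558). *Col10a1* was called as well (3.83 ± 1.25, edgeR adjusted p = 0.0303), but its counts were 9, 210 and 42 against 9, 5 and 6 in WT, and without replicate 2 of WT+ZnO NPs the log2 fold change was 1.896 (adjusted p = 0.187). Its call was also lost without any 1 WT library, with adjusted p from 0.0686 to 0.0987. *Col20a1*, *Col26a1* and *Col27a1* also rose, by 1.45, 2.19 and 0.50 on the log2 scale, and the *Col27a1* call was lost without replicate 2 of WT (adjusted p = 0.0914) or of WT+ZnO NPs (adjusted p = 0.0654). *Col12a1* had a log2 fold change of 0.077 ± 0.45 and was not called.

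Other genes of the collagen pathway were called with exposure of WT as follows, beside the 20.8% of all genes that rose and the 22.1% that fell. Of 19 genes of folding and hydroxylation 0 rose and 7 fell (36.8%, median log2 fold change −0.544), with *Plod1* lower by 2.03 on the log2 scale (edgeR adjusted p = 1.91e-05). Of 5 cross-linking oxidases 3 fell, led by *Loxl3* (−1.96, edgeR adjusted p = 5.01e-05), and of 9 proteoglycans 4 fell, led by *Podn* (−1.14, edgeR adjusted p = 0.00264). Of 12 genes of secretion and processing 3 rose (25%) and 4 fell (33.3%), with *Klhl12*, an adaptor for large collagen carriers, higher by 0.81 (edgeR adjusted p = 0.000303). Of 9 receptors 2 rose (22.2%) and 3 fell (33.3%), led by *Lair1* (−4.43, edgeR adjusted p = 7.19e-05), and of 8 genes of the TGF-beta axis 1 rose (12.5%) and 2 fell (25%), led by *Tgfbr2* (−2.05, edgeR adjusted p = 0.000106). Rises among the secretion and receptor genes and falls among the TGF-beta genes thus had shares near those of all genes.

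Counts of marker genes called here also stand beside 20.8% of all genes higher and 22.1% lower. Fibroblast markers summed to 442 to 905 CPM in WT+ZnO NPs against 1445 to 1964 in WT, with 6 of 10 called lower and 0 higher. Hair follicle markers summed to 998 to 5637 CPM against 11.97 to 22.8, with 10 of 10 called higher, and adipocyte markers to 814 to 1674 against 5301 to 7443, with 6 of 7 lower. Proliferation markers summed to 523 to 1076 CPM against 192 to 375, with 6 of 6 higher. Of the basal keratinocyte markers 3 of 7 were called higher (42.9%), and of the cartilage and bone markers 3 of 5 tested, at summed levels of 5.40 to 20.3 CPM. Of the skeletal muscle markers 1 of 9 (11.1%) and of the Schwann cell markers 1 of 7 (14.3%) were called higher, shares below that of all genes. Of 7 pericyte and smooth muscle markers 1 rose and 2 fell. The part of these lists in the collagen differences was not tested.

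Exposure of KO, by the labels, went with mostly negative collagen values and few calls. Against KO, 0 members rose and 3 fell (7.32%), beside 6.57% and 8.09% of all genes, so the share of members that fell was near that of all genes. At an unadjusted p below 0.05 there were 12 members, again without the share of all genes. The median log2 fold change was −0.522 over the 41 members, against 0.00728 over all genes, and 32 members had a negative value. All 3 exposed libraries lay below all KO libraries for 15 members (36.6%), against 17.7% of genes. A fit of these groups alone called 0 members, beside 3.24% of genes, with 15 at an unadjusted p below 0.05. DESeq2 on all 12 libraries called 9 members, 2 higher (*Col4a5* and *Col22a1*) and 7 lower, beside 10.1% of genes higher and 11.7% lower.

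The members called were *Col12a1*, *Col24a1* and *Col27a1*, which had also risen in KO against WT, a comparison that shares the KO libraries. *Col12a1* fell from 66.0, 77.8 and 76.2 to 23.5, 34.8 and 10.4 RPKM (−1.68 ± 0.46, edgeR adjusted p = 0.0373). *Col24a1* fell from 1.096, 1.25 and 2.51 to 0.647, 0.875 and 0.402 RPKM (−1.34 ± 0.40, edgeR adjusted p = 0.0463), and without KO replicate 3 by 0.88 (adjusted p = 0.173). *Col27a1* fell from 4.47, 5.46 and 6.02 to 3.04, 3.96 and 3.87 RPKM (−0.55 ± 0.15, edgeR adjusted p = 0.0363). None of the 3 pairs of groups overlapped. Of the 12 fits that left out 1 library, *Col12a1* was called in 6, *Col24a1* in 1, that without KO replicate 1, and *Col27a1* in 5. *Col12a1* was lost without WT replicate 3, any 1 KO library or KO+ZnO NPs replicate 1 or 3 (adjusted p from 0.0532 to 0.106). *Col27a1* was lost without WT replicate 3, WT+ZnO NPs replicate 3, KO replicate 2 or 3 or any 1 KO+ZnO NPs library (adjusted p from 0.0502 to 0.121).

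*Col7a1* stood at 43.8, 48.8 and 22.2 RPKM in KO+ZnO NPs, below the 55.4 to 65.9 of KO, and was not called (−0.69 ± 0.33, edgeR adjusted p = 0.168). *Col1a1*, at 1138, 849 and 875 RPKM against 1271, 994 and 1826, overlapped KO and was not called (−0.52 ± 0.58, edgeR adjusted p = 0.568). *Col6a3*, at 62.2, 79.0 and 43.9 RPKM against 109, 101 and 136, was not called (−0.91 ± 0.31, edgeR adjusted p = 0.0707). *Col4a5* was among the 9 members with a positive value, at 3.14, 3.39 and 3.00 RPKM against 2.38, 1.15 and 1.76, and was not called (0.85 ± 0.29, edgeR adjusted p = 0.0692).

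In the pathway, calls stand beside the 8.09% of all genes that fell in this comparison. Of the cross-linking oxidases 3 of 5 fell, led by *Loxl3* (−0.96, edgeR adjusted p = 0.0121). Of 19 genes of folding 2 fell (10.5%), led by *Colgalt1*, a collagen galactosyltransferase (−0.56, edgeR adjusted p = 0.0123), and of 12 genes of secretion 1 fell (8.33%), *Mia3*, which packs collagen at the exit from the endoplasmic reticulum (−0.32, edgeR adjusted p = 0.0475). Both shares were near that of all genes. Of 9 proteoglycans 2 fell, led by *Podn* (−0.96, edgeR adjusted p = 0.0217), of 9 receptors 2, led by *Lair1* (−2.68, edgeR adjusted p = 0.00755), and of 8 genes of the TGF-beta axis 2, led by *Tgfbr1* (−0.70, edgeR adjusted p = 0.019). None of these lists held a gene that rose. Fibroblast markers summed to 849 to 1195 CPM in KO+ZnO NPs, below the 1652 to 1857 of KO, with 2 of 10 called lower. Proliferation markers summed to 546 to 652 CPM against 187 to 366, with 4 of 6 called higher, and skeletal muscle markers to 3410 to 19360 against 1812 to 5981, with 1 of 9 called higher. The part of these lists in the collagen values was not tested.

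Between the exposed groups, the libraries labelled KO+ZnO NPs differed from those labelled WT+ZnO NPs in 1 member, which rose (2.44%), beside 2.13% of all genes that rose and 1.16% that fell. Scaled by library size alone, 1 member was called too, but the genes called turned from 400 higher and 218 lower to 258 higher and 516 lower, with the median of all genes at −0.11. At an unadjusted p below 0.05 there were 13 members. The member was *Col7a1*, at 43.8, 48.8 and 22.2 RPKM against 11.6, 9.29 and 7.62, a 4.02-fold difference (2.01 ± 0.34, edgeR adjusted p = 0.029). Its call was lost without replicate 3 of WT+ZnO NPs or replicate 1 of KO+ZnO NPs (adjusted p = 0.125 and 0.062), with Y-linked transcripts as a covariate (2.15, adjusted p = 0.106) and in a fit of these groups alone (1.97, adjusted p = 0.193). *Col12a1*, at 23.5, 34.8 and 10.4 RPKM against 6.21, 15.2 and 7.21, overlapped and was not called (1.26 ± 0.46, edgeR adjusted p = 0.126). *Col6a3* did not overlap, at 62.2, 79.0 and 43.9 RPKM against 21.6, 40.8 and 24.6, and was not called (1.09 ± 0.31, edgeR adjusted p = 0.0718). In the pathway, *P4ha3* and *Plod3* of folding, *Loxl1*, *Itga2* and *Tgfbr2* rose, 0 genes of secretion or of the proteoglycans were called, and no gene of these lists fell. Endothelial markers summed to 321 to 903 CPM against 150 to 305, with 2 of 7 called higher, and their part in the collagen values was not tested.

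The interaction term asks whether the log2 difference of KO+ZnO NPs from KO equals that of WT+ZnO NPs from WT. For 6 members (14.6%) the response was lower in KO than in WT and for 0 it was higher, beside 3.59% and 5.08% of all genes. A fit with Y-linked transcripts as a covariate called 1 member (*Col27a1*), beside 0.664% of genes, and without WT replicate 2 also 1 (*Col7a1*), beside 2.38%. DESeq2 called 11, all lower in KO, beside 17.1% of genes. Scaled by library size alone, 7 members had a lower response and 0 a higher one, while all genes called turned from 957 higher and 676 lower to 660 higher and 1001 lower, with their median at −0.13. Those 6 were *Col24a1* and *Col27a1* of the fibrillar class, *Col7a1* of the basement membrane class, and *Col10a1*, *Col16a1* and *Col25a1*. At an unadjusted p below 0.05 there were 14 members. *Col7a1* went up by 1.55 on the log2 scale in the libraries of WT and had a value of −0.69 in those of KO, a difference of −2.24 ± 0.46 (edgeR adjusted p = 0.0201). *Col24a1* went up by 1.42 in WT and fell by 1.34 in KO (−2.76 ± 0.58, edgeR adjusted p = 0.0209), and *Col27a1* went up by 0.50 and fell by 0.55 (−1.06 ± 0.22, edgeR adjusted p = 0.0191).

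Of the uncalled members, *Col1a1* had an interaction of −2.21 ± 0.82 (edgeR adjusted p = 0.115), which was −1.16 without replicate 2 of WT+ZnO NPs, *Col12a1* of −1.76 ± 0.65 (edgeR adjusted p = 0.11) and *Col26a1* of −2.55 ± 0.72 (edgeR adjusted p = 0.0531). The median over basement membrane members was −0.0826, against −1.06 over fibrillar and −0.816 over other members and 0.0244 over all genes. In the pathway, beside the same shares of all genes, *Plod1*, *Plod3* and *P4ha3* of folding, *Loxl3* and *Tgfbr2* had a higher response in KO than in WT, with *Plod1* at 1.59 (edgeR adjusted p = 0.00453), while *Bmp1*, *Ddr1* and *Smad7* had a lower one, with *Smad7* at −1.85 (edgeR adjusted p = 0.00974). No proteoglycan was called. Of the hair follicle markers 6 of 10 had a lower response in KO (median −8.83) and of the endothelial markers 4 of 7 a higher one (median 2.07), and their part in the collagen values was not tested.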

How the data were processed

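Skin RNA of 12 mice was sequenced, and samples were grouped by their labels. The paper states alignment with STAR and counting with HTSeq, while the submitters' processing notes name HISAT2 2.0.5 and mm10. Neither annotation release nor strand setting is given in the sources used here. The authors deposited whole-number counts per gene without normalization. Reads that overlap several genes may be left out or split: 13 members overlap an exon of another gene, over at most 6.07% of their exon length, and 7 share more than 1% of their 50-base stretches with other genes, at most 4.87%.

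Of the 52636 genes, 52489 were matched to GENCODE vM21 (GRCm38). The members and lists were chosen with earlier results of these data known. Counts were tested in R 4.3.3 with the quasi-likelihood test of edgeR 4.0.16 (TMM factors, the filter of edgeR on low counts, one coefficient per group, 12 libraries, common dispersion 0.109, Benjamini-Hochberg adjustment over 18822 genes, called at an adjusted p below 0.05). The standard errors were obtained from the F statistic and are approximate. Levels are TMM-scaled CPM or RPKM. Nothing in the labels ties the mice to litters. The p-values rest on 3 mice per group, with the spread estimated over all 4 groups together. Libraries of the same group differed beyond sampling noise (chi-square per degree of freedom 37.4 to 162), so all were kept. The test was also run on simulated counts, and the outcome is not given or relied on here. Members named with values were the 4 highest in each class by mean RPKM, in each comparison the 3 called members that rose most and the 3 that fell most, at a mean of at least 1 CPM, and the partner chains of these. Others named were chosen after their values were seen. Of each pathway list, the called gene with the smallest p was given. The lists were 6 of the collagen pathway and markers of fibroblasts, basal keratinocytes, growing hair follicle, adipocytes, skeletal muscle, endothelium, pericytes and smooth muscle, Schwann cells, cartilage and bone, and proliferation. *Lox* stands in both the fibroblast and the cross-linking list. Alternatives were DESeq2 1.42.0, other scaling and filters, the replicate number or Y-linked transcripts in the model, fewer libraries, a fold change of at least 2 and another transcript length.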

Additional observations from a re-analysis of the deposited data

Results flagged for a closer look

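The response to exposure differed between the genotypes by the interaction test of edgeR, fitted on all 12 libraries, for 6 collagen genes. The difference of the log2 response in KO from that in WT was −2.24 for *Col7a1*, −6.29 for *Col10a1*, −1.32 for *Col16a1*, −2.76 for *Col24a1*, −3.90 for *Col25a1* and −1.06 for *Col27a1*, with adjusted p of 0.0201, 0.0464, 0.0383, 0.0209, 0.0375 and 0.0191. Of the 12 fits that left out 1 library, *Col7a1* was called in 12, *Col24a1* in 11, *Col27a1* in 10, *Col10a1* and *Col16a1* in 2 each and *Col25a1* in 1. *Col24a1* was lost without WT replicate 2 (adjusted p = 0.0622) and *Col27a1* without WT replicate 2 or KO replicate 3 (adjusted p = 0.0586 and 0.0504). *Col10a1* was kept without WT+ZnO NPs replicate 1 or KO+ZnO NPs replicate 2, *Col16a1* without WT+ZnO NPs replicate 1 or KO replicate 2 and *Col25a1* without KO replicate 1, and without any other library these 3 had adjusted p from 0.0506 to 0.118. With Y-linked transcripts as a covariate the call of *Col27a1* was kept and the other 5 were lost, with adjusted p from 0.0747 for *Col25a1* to 0.177 for *Col16a1*. Their values in that fit were −2.02 for *Col7a1*, −7.58 for *Col10a1*, −1.302 for *Col16a1*, −3.09 for *Col24a1* and −4.85 for *Col25a1*, about as large as or larger than without the covariate. The libraries labelled WT+ZnO NPs, against whose label the *Cdc42* transcript goes, enter each of these values, and all of them hold Y-linked transcripts while no WT library does.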

How the results depend on the processing

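Recomputing 39 called values and 23 uncalled ones gave 1247 alternative values, of which 0 turned the direction, 1028 kept it and the side of the threshold, 163 lost the call and 56 gained one. Fits that left out 1 library gave 8 to 15 members called in KO against WT (1.94% to 10.6% of all genes), 7 to 19 in WT+ZnO NPs against WT (30.7% to 46.7%), 0 to 4 in KO+ZnO NPs against KO (2.34% to 16.4%), 0 to 4 in KO+ZnO NPs against WT+ZnO NPs (0.00517% to 8.26%) and 1 to 5 in the interaction (2.38% to 8.45%). The fits with 0 calls had 6 to 12 members at an unadjusted p below 0.05 in edgeR for KO+ZnO NPs against KO (without WT replicate 3, KO replicate 2 or 3 or KO+ZnO NPs replicate 3), and 7 and 12 for KO+ZnO NPs against WT+ZnO NPs (without WT+ZnO NPs replicate 3 or KO+ZnO NPs replicate 1). The 7 of WT+ZnO NPs and the 1 of the interaction were both without WT replicate 2. The counts in the same order were 19, 24, 9, 5 and 11 with DESeq2, beside 14.0%, 39.6%, 21.8%, 12.2% and 17.1% of genes. Those DESeq2 calls were 19 higher and 0 lower, 16 and 8, 2 and 7, 4 and 1, and 0 and 11. With Y-linked transcripts as a covariate they were 9, 4, 2, 0 and 1, beside 5.11%, 20.7%, 12.8%, 0.00531% and 0.664% of genes, where the 0 had 6 members at an unadjusted p below 0.05 in edgeR. Fits of only the groups compared called 19, 15, 0 and 0, beside 15.9%, 49.0%, 3.24% and 0% of genes, with 15 and 10 members at an unadjusted p below 0.05 in edgeR behind the last 2. Using only libraries without Y-linked transcripts left 0 calls in KO+ZnO NPs against KO, beside 12.8% of genes, with 14 at an unadjusted p below 0.05 in edgeR. The cause of these shifts was not tested. For samples with the same replicate number, the correlation r of deviations from the group mean was −0.343 to 0.429 (18 pairs, median 0.0336, 4 over 0.1). Over 36 pairs with other numbers it was −0.414 to 0.366 (median −0.0161, 5 over 0.1). The highest r was that of replicate 1 of KO and of KO+ZnO NPs, the only libraries of these groups with Y-linked transcripts. The replicate block gave 9, 14, 3, 1 and 5 calls, beside 6.58%, 42.9%, 13.8%, 3.33% and 7.59% of genes. In KO+ZnO NPs against KO it called *Col4a5* higher and *Col12a1* and *Col27a1* lower. Other scaling, filters and a minimum fold of 2 kept each count within 1.5 times. The union of exons as length changed levels only, because comparisons of a gene between groups do not depend on its length. Members under 10 counts in some library, such as *Col10a1* and *Col25a1*, are limited by counting error.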
